A study of Mus musculus with 6 samples.

Results

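The genes described here carry the Nodal signal or restrain it: the ligands Nodal, Gdf1 and Gdf3, the co-receptor Tdgf1, the inhibitors Lefty1 and Lefty2, the receptors Acvr1b, Acvr2a and Acvr2b, and the signal transducer Smad2. They were chosen by gene symbol, as the rows of the array whose annotation names exactly 1 of these genes. Of the 10 genes, 9 had such a row, 1 each, among 22180 genes tested. The only annotated row for Gdf1 also names Cers1, so Gdf1 was kept out of the counts and its shared row is given separately.

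Nodal is a secreted ligand of the TGF-beta family. It binds a complex of type II activin receptors (Acvr2a, Acvr2b) and a type I receptor (Acvr1b) and needs a co-receptor such as Tdgf1, also called Cripto, to do so. The type I receptor then phosphorylates Smad2 and Smad3, which enter the nucleus with Smad4 and act at genes bound by partners such as Foxh1. Lefty1 and Lefty2 are both targets and inhibitors of the pathway, which makes a feedback loop. The pathway forms mesendoderm and the left-right axis in the embryo, and mouse ES cells are known to express many of its genes. In skeletal muscle the same type II receptors are known to serve myostatin and the activins.

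The study compared 2 groups of mouse samples, each measured on 3 single-colour arrays of total RNA. The first group was undifferentiated ES cells, which are pluripotent and were given no differentiation treatment. The second, called Pax7-GFP, held cells sorted for GFP fluorescence of a Pax7 reporter from cultures that had undergone 3 weeks of myogenic differentiation, and muscle progenitors are the cells in which Pax7, a transcription factor, is best known. The names of the ES lines, the reporter allele and the number of clones are not given here. The labels call the replicates biological, but whether the cultures were separate is not stated, so the p-values may reflect technical spread only. Values are log2 signals made by RMA, a method that corrects background, normalizes arrays to each other and summarises the probes of a row. Array medians lay between 5.61 and 5.69, and arrays correlated across genes at 0.987 or more within groups and at 0.905 or less between them. All 12 ES marker genes checked were lower in Pax7-GFP cells and all 10 muscle markers were higher, Pax7 among them. Over all genes tested, 7.15% were lower and 7.34% higher by the thresholds given below. Both marker lists were chosen with earlier results of these data known.

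Each array pooled many cells, so fewer cells that express a gene and less RNA per cell cannot be told apart. A gene was called where limma's adjusted p was under 0.05 and the difference was at least 2-fold, that is 1 on the log2 scale. Of the 9 genes, 5 were called lower in Pax7-GFP cells, 1 was called higher and 3 were not called. Over all genes tested, 7.15% were called lower, 7.34% higher and 14.5% in either direction. The median log2 difference of the 9 genes was -1.39, against 0.024 over all genes. The genes were chosen with earlier results of these data known, so these contrasts only describe them. The 3 genes that were not called passed the p threshold alone, as did 41.1% of all genes. ES and Pax7-GFP arrays did not overlap for any of the 9, an arrangement found in 51.9% of all genes.

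**Figure D1:**
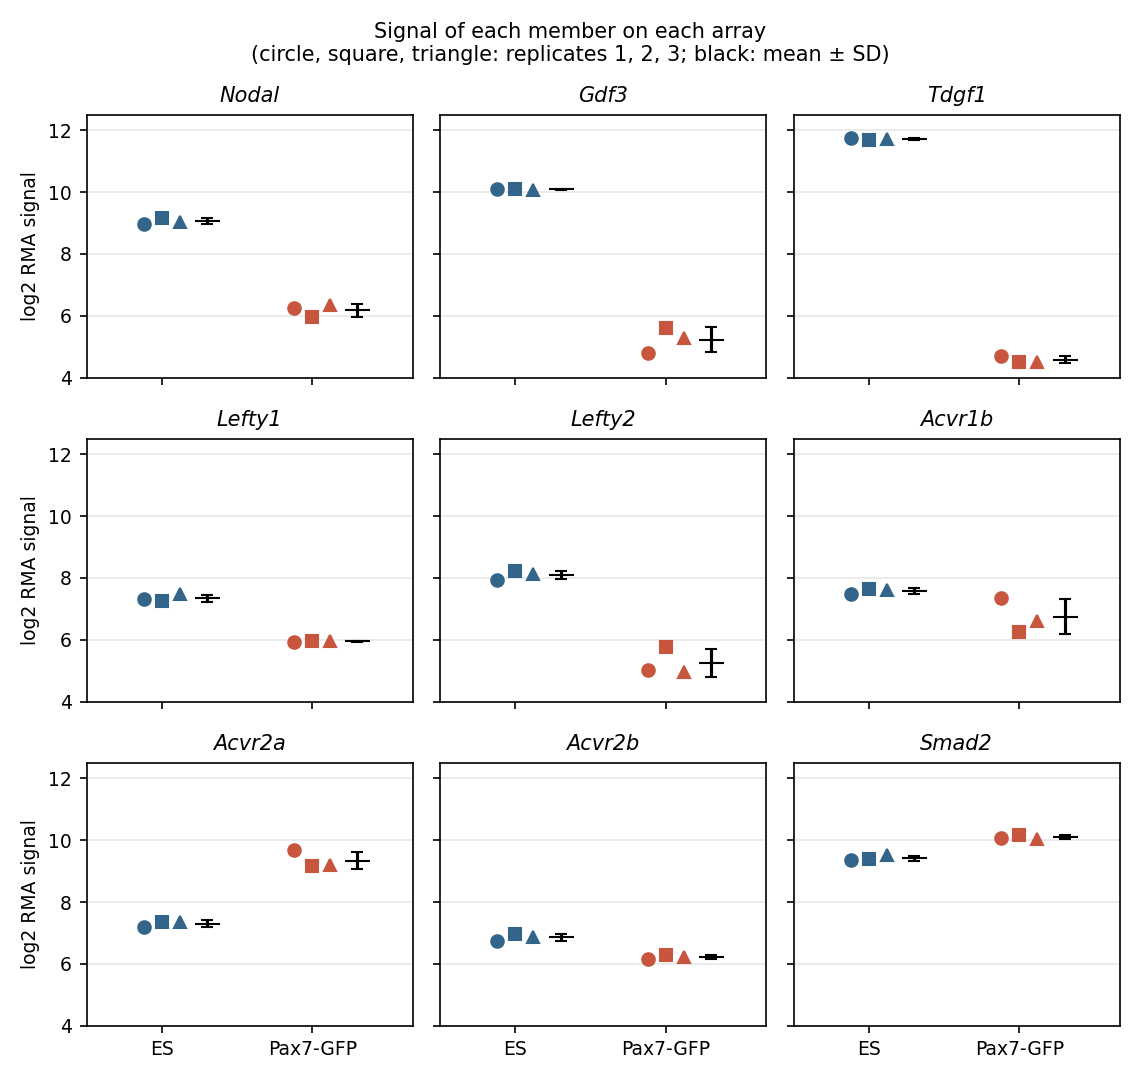
Log2 RMA signal (vertical axis) of the 9 genes on the 3 ES arrays (blue) and 3 Pax7-GFP arrays (red), where circles, squares and triangles are replicates 1, 2 and 3 and black marks give the mean ± SD. Tdgf1 drops from 11.71 to 4.57 with tight replicates, Acvr2a rises from 7.30 to 9.34, and Acvr1b is spread from 6.25 to 7.36 among Pax7-GFP arrays.

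The ligands with a row of their own fell. Nodal, measured by row 17233702, stood at 8.97, 9.16 and 9.05 on ES arrays 1 to 3 and at 6.26, 5.95 and 6.34 on Pax7-GFP arrays 1 to 3. The lowest ES array was 2.62 above the highest Pax7-GFP array. Its means were 9.06 ± 0.094 and 6.18 ± 0.21 (SD, n = 3 each), a log2 difference (log2 fold change, Pax7-GFP minus ES) of -2.87 (SE 0.12) or 7.33-fold lower (limma, adjusted p = 4.85e-07). The Pax7-GFP level of Nodal remained above the array medians, but no detection calls accompany the values, so neither presence nor absence can be read from it.

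Gdf3, a ligand related to Nodal that is known from pluripotent cells, fell further. Its row, 17470592, read 10.11, 10.09 and 10.06 on the ES arrays and 4.79, 5.59 and 5.28 on the Pax7-GFP arrays. The ES values were almost alike, whereas the Pax7-GFP values differed by up to 0.80 and all lay below the array medians. The log2 difference was -4.87 (SE 0.18), 29.2-fold lower (limma, adjusted p = 2.80e-07), and 37 of the 22180 genes tested had a larger fall. With Pax7-GFP signals this low, the fold and the rank depend on the background of the arrays.

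Gdf1, which pairs with Nodal in left-right patterning, shares row 17501905 with Cers1, a ceramide synthase encoded on the same transcript. The shared row read 6.20, 5.99 and 6.08 in ES cells and 6.54, 6.43 and 6.32 in Pax7-GFP cells. The arrays did not overlap, but the difference was small, at 0.34 (SE 0.096, 95% interval 0.12 to 0.56), and was not called (limma over 25335 annotated rows, adjusted p = 0.0206). The row does not show which of the 2 genes differed.

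Tdgf1, the co-receptor, had the largest change of the 9 genes and the third largest fall among the 22180 genes tested. Row 17531685 read 11.74, 11.67 and 11.71 on the ES arrays and 4.71, 4.51 and 4.51 on the Pax7-GFP arrays. Arrays of a group differed by at most 0.20, and the groups were 6.97 apart at their nearest arrays. Means were 11.71 ± 0.034 and 4.57 ± 0.11 (SD, n = 3 each), and the log2 difference was -7.13 (SE 0.087, 95% interval -7.33 to -6.93), 140.5-fold lower (limma, adjusted p = 5.12e-09). RefSeq lists 2 pseudogenes of Tdgf1, Tdgf1-ps1 and Tdgf1-ps2, whose transcripts the row may not separate from Tdgf1 itself. The Pax7-GFP signals lay below the array medians, so the exact fold and rank depend on background here too.

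Nodal and Tdgf1 fell together, and the 250 bases before the start of each gene, from RefSeq (GRCm38.p6), are shown to compare their composition and motifs. Nodal's lies at chr10:61417722-61417971 on the plus strand and Tdgf1's at chr9:110946159-110946408 on the minus strand, both printed in the direction of transcription. Capitals mark matches to the motifs searched on both strands.
Nodal: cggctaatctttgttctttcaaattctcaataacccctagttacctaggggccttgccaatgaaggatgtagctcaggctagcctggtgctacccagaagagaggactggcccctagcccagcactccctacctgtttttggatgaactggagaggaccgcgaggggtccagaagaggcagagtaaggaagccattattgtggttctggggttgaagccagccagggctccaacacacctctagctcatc
Tdgf1: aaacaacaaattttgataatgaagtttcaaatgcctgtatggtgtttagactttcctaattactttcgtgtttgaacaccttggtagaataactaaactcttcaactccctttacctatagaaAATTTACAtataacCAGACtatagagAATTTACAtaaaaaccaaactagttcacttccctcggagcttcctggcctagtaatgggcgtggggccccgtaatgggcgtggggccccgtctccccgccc
The motifs were TGTNNATT, a Foxh1-type site, CAGAC, a Smad-type site, ATGCAAAT, the octamer of Oct factors, and TATAAA, the TATA box. Tdgf1 held 2 Foxh1-type matches, both read AATTTACA on the printed strand, with their first bases 127 and 101 before the start. A Smad-type match lay between them, starting 113 bases before the start, and none of the matches overlapped. Of 32851 promoter windows of this length, 10.9% held a Foxh1-type match, 42.2% a Smad-type match, 1.60% an octamer and 12.4% a TATA box. Nodal's window held none of the 4, which says only that these letters are not in it. GC content was 53.2% for Nodal and 42.0% for Tdgf1, near and below the median of 52.4% over all windows. Promoter entries were matched for 6 of the 10 genes, and Lefty1, Lefty2, Gdf3 and Smad2 had none.

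The inhibitors Lefty1 and Lefty2 both fell. Lefty1, row 17220214, read 7.31, 7.24 and 7.48 in ES cells and 5.93, 5.96 and 5.96 in Pax7-GFP cells. The Pax7-GFP arrays were nearly equal, and the deposited values of replicates 2 and 3 were the same number, as happened in 34 of the 41345 rows for that pair of arrays. The log2 difference was -1.39 (SE 0.088), 2.63-fold lower (limma, adjusted p = 5.51e-06). Lefty2, row 17220197, read 7.95, 8.22 and 8.12 in ES cells and 5.02, 5.78 and 4.96 in Pax7-GFP cells, with replicate 2 higher than the other Pax7-GFP arrays. Its log2 difference was -2.84 (SE 0.21), 7.16-fold lower (limma, adjusted p = 1.21e-05).

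The estimated falls of the 2 genes differed by 1.45 on the log2 scale. Lefty2 lay near or below the array medians in Pax7-GFP cells. An exact permutation test of 3 against 3 arrays gave p = 0.10, the smallest it can give. It therefore cannot decide whether the falls differ. The Lefty genes are close paralogs, so their rows may share signal. How far the rows cross-hybridise was not tested.

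Of the receptors, 1 was called, and it was higher. Acvr2a, a type II receptor for activins, Nodal and myostatin, rose on row 17370598 from 7.18, 7.35 and 7.37 in ES cells to 9.67, 9.15 and 9.20 in Pax7-GFP cells. Every Pax7-GFP array lay at least 1.79 above every ES array. The log2 difference was 2.04 (SE 0.14), 4.12-fold higher (limma, adjusted p = 1.05e-05). Acvr2b, its paralog, read 6.74, 6.96 and 6.87 in ES cells and 6.15, 6.28 and 6.23 in Pax7-GFP cells on row 17523081. These groups did not overlap either, with the Pax7-GFP arrays below, but the difference of -0.64 (SE 0.089, 95% interval -0.84 to -0.43) was under 2-fold and was not called (limma, adjusted p = 0.000548). The difference between the changes of Acvr2b and Acvr2a was -2.68. The exact permutation test again gave p = 0.10, the smallest it can give, and so cannot decide here either.

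Acvr1b, the type I receptor, had the widest spread of the 9 genes among Pax7-GFP arrays, an SD of 0.57. Row 17315152 read 7.48, 7.65 and 7.61 in ES cells and 7.36, 6.25 and 6.62 in Pax7-GFP cells. Pax7-GFP replicate 1 was close to the ES arrays, while replicates 2 and 3 were lower. The log2 difference was -0.83 (SE 0.24, 95% interval -1.40 to -0.27) and was not called (limma, adjusted p = 0.0245). Without Pax7-GFP replicate 1 it was -1.14 and was called lower (limma, adjusted p = 9.24e-05), which made 6 genes lower. Leaving out any other single array took its limma adjusted p to between 0.0547 and 0.0827, above the threshold.

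The windows before the starts of the paralogs Acvr2a and Acvr2b are shown because Acvr2a rose while Acvr2b, at -0.64, was not called. They lie at chr2:48813859-48814108 and chr9:119401928-119402177 (GRCm38.p6, RefSeq), both on the plus strand, with capitals for motif matches as above.
Acvr2a: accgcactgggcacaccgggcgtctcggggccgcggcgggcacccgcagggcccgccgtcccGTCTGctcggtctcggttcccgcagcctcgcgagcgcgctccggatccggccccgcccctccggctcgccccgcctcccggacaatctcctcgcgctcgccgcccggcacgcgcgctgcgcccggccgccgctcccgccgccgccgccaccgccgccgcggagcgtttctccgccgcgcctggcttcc
Acvr2b: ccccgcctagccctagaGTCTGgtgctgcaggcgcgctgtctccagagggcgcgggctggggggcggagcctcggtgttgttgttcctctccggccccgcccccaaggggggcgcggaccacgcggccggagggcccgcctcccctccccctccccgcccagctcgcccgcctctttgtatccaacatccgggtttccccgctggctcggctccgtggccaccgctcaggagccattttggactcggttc
Both held 1 Smad-type match, GTCTG on the printed strand, and no match to the other motifs. Both were rich in G and C, at 82.0% and 72.8%, and Acvr1b, whose window had no motif match, was at 78.8%. The upper quartile over all windows began at 61.2%. The windows held 49 CpG dinucleotides in Acvr2a, 24 in Acvr2b and 42 in Acvr1b, against 3 in Nodal, 7 in Tdgf1 and a median of 6 over all windows.

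Smad2, the transducer, differed by less than 2-fold. Row 17351886 read 9.36, 9.38 and 9.51 in ES cells and 10.08, 10.16 and 10.03 in Pax7-GFP cells. All Pax7-GFP arrays were above all ES arrays, and the spread within groups was small. The log2 difference was 0.67 (SE 0.084, 95% interval 0.48 to 0.87), 1.59-fold higher and under the 2-fold minimum, so Smad2 was not called (limma, adjusted p = 0.000292).

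**Figure D2:**
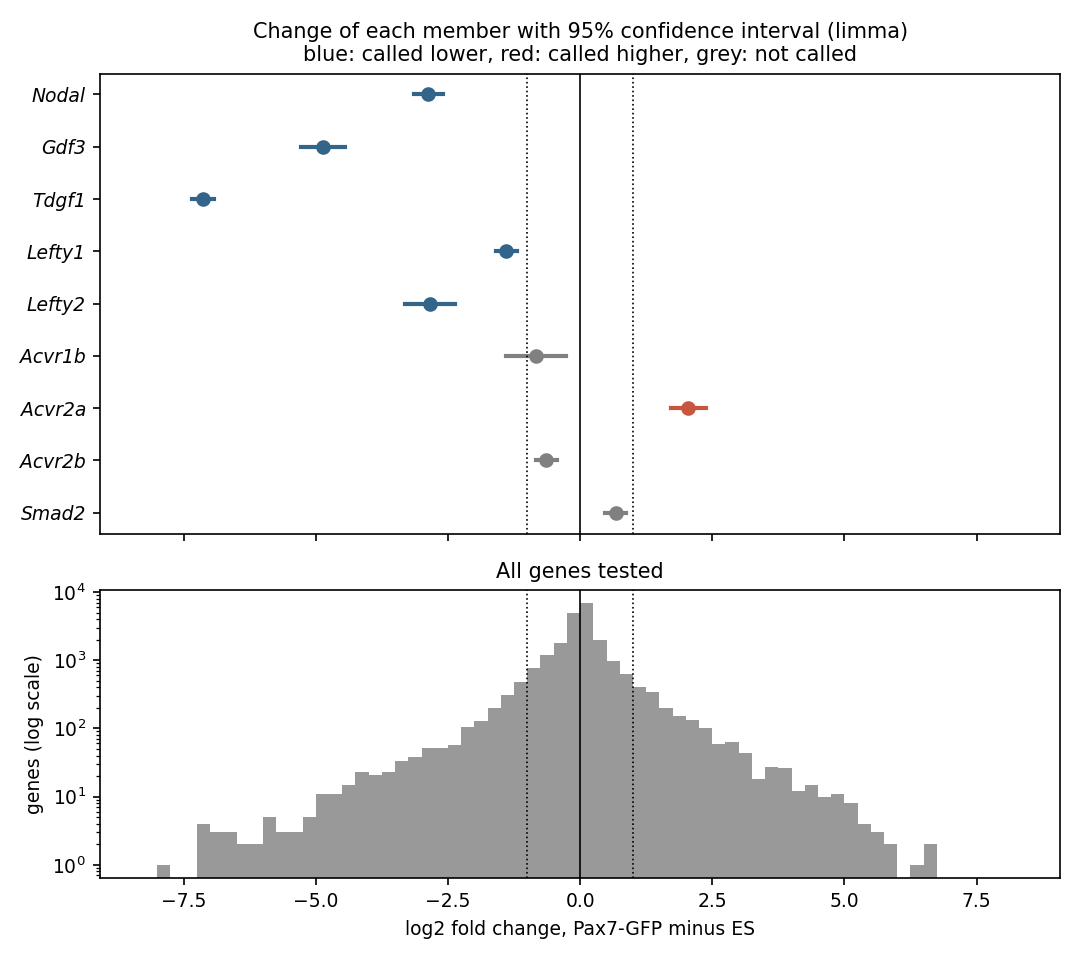
Upper panel, log2 difference (Pax7-GFP minus ES) of each gene as a point with its 95% confidence interval from limma; lower panel, the distribution of the same quantity over 22180 genes, with the number of genes on a log scale. Dotted lines mark 2-fold differences, and the intervals of Nodal, Gdf3, Tdgf1, Lefty1 and Lefty2 lie wholly below the lower one, that of Acvr2a wholly above the upper one.

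Further genes of the pathway fell into both directions. Of 26 other components listed, 25 had a row of their own. Of these, 4 were called lower, 4 higher and 17 not called, 10 of which passed only the p threshold. The median log2 difference was 0.23. Over all genes, 7.15% were called lower and 7.34% higher, and 41.1% passed the p threshold at any fold. Foxh1, the DNA-binding partner of Smad2, fell most, from 9.19, 9.29 and 9.24 to 5.38, 5.81 and 5.70, a log2 difference of -3.61 (SE 0.12, limma, adjusted p = 1.44e-07). Pcsk6, a convertase that cleaves the Nodal precursor, went from 9.09, 9.20 and 9.21 to 6.47, 6.45 and 6.36, a change of -2.74 (SE 0.082, limma, adjusted p = 8.87e-08). Furin, the convertase best known for the same reaction, stood at 0.92 (limma, adjusted p = 0.000324). It passed the p threshold but not the 2-fold minimum and was not called, except without Pax7-GFP replicate 2, where it stood at 1.03. Smad7, an inhibitory Smad, fell by 1.51. Dact2, a modulator of the receptors and the fourth gene lower, was named after its value was seen and stood at -1.18.

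Smad3, which shares the role of Smad2, rose from 6.23, 6.44 and 6.45 to 8.08, 7.85 and 8.18, a log2 difference of 1.67 (SE 0.11, limma, adjusted p = 8.36e-06). Acvr1, a type I receptor mainly of BMP signals, rose by 1.63, and Skil, a repressor of Smad activity, by 1.33. Ski, the relative of Skil, named after its value was seen, stood at 1.01, at the 2-fold line. It was not called with arrays centred on their medians, without ES replicate 1 or without ES replicate 3. Smad4, the common partner Smad, stood at 0.70, past the p threshold but under the 2-fold minimum, and was not called, like Smad2. The other Nodal co-receptor, Cfc1, and the alternative type I receptor, Acvr1c, stood at 0.014 and -0.053, neither past the p threshold. Cfc1 read 6.04 in ES and 6.06 in Pax7-GFP cells. Acvr1c read 4.35 in ES and 4.30 in Pax7-GFP cells, below the array medians in both.

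Among 11 activins, related ligands and ligand-binding proteins, 3 were called higher, 1 lower and 7 were not called, beside 7.34% of all genes higher and 7.15% lower, and the median was 0.18. Gdf11, a close relative of myostatin, rose by 1.73 (SE 0.11, limma, adjusted p = 4.81e-06), from 6.67 ± 0.055 to 8.40 ± 0.18 (SD, n = 3 each). Tgfbr3, the betaglycan co-receptor, rose by 1.45, and Inha, the inhibin alpha chain, by 1.36. Inhba, which encodes the chain of activin A, fell by 1.50 (SE 0.23, limma, adjusted p = 0.000805), from 6.14, 6.95 and 6.78 to 5.47, 4.90 and 5.00. Its groups did not overlap, but ES replicate 1 stood apart from the other ES arrays. Myostatin, Mstn, read 3.80 in ES and 3.79 in Pax7-GFP cells, below the array medians in both.

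Of 17 genes known to respond to Nodal or activin, a list without Lefty1 and Lefty2, 15 had a row of their own. Of these, 2 were called lower, 2 higher and 11 were not called, and the median was -0.029. Over all genes, 7.15% were lower and 7.34% higher. Eomes, a transcription factor of mesendoderm, fell by 1.53 (SE 0.14, limma, adjusted p = 5.31e-05), and Smad7, which also stands among the components, was the other. Cxcr4, a chemokine receptor, rose by 3.10 (SE 0.13, limma, adjusted p = 5.66e-07), from 6.57, 6.26 and 6.44 to 9.32, 9.75 and 9.49, and Skil was the other gene higher. Cxcr4 is also known from muscle progenitors. Gsc, Mixl1 and Lhx1, classical targets in the primitive streak, stood at -0.082, -0.11 and -0.029, with ES means of 6.62, 5.57 and 5.40. Cer1, Fgf5, Fgf8 and Wnt3 had ES means of 5.31, 4.97, 5.32 and 5.50. Like Mixl1 and Lhx1, they lay below the array medians in ES cells already. How far a fall from such levels can be measured was not tested. The ES means of the other uncalled targets lay above the medians.

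**Figure D3:**
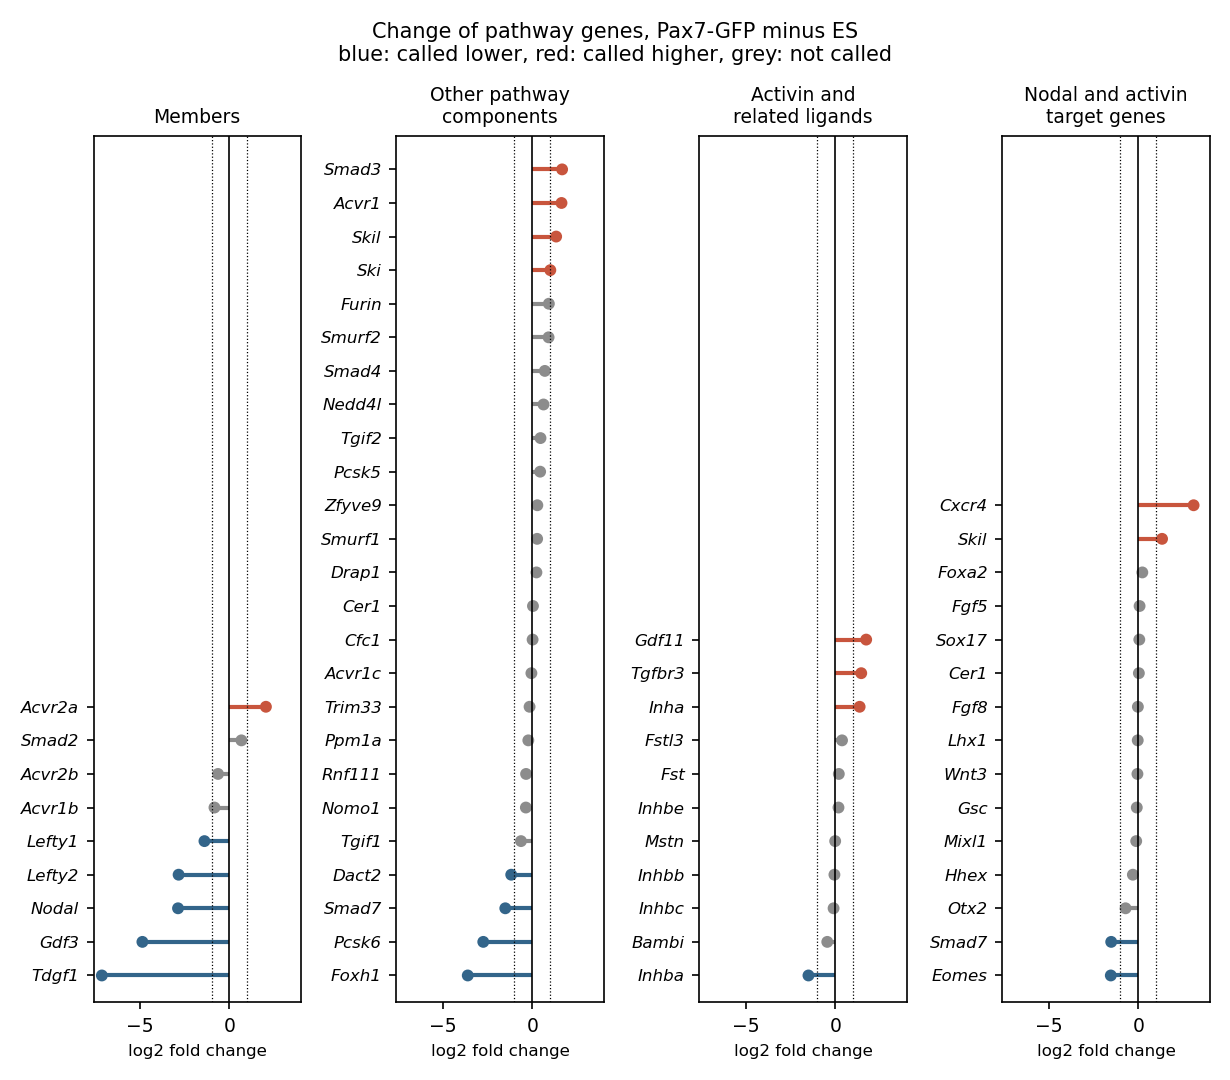
Log2 fold change, Pax7-GFP minus ES (horizontal axis), of the 9 genes and of 3 lists of pathway genes, one line per gene, with dotted lines at 2-fold differences. Blue genes were called lower, red higher and grey not called; Foxh1 at -3.61 and Cxcr4 at 3.10 have the largest fall and rise of the 3 lists.

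Markers of other cells that the cultures or the gate could hold were read on the same arrays, as the mean log2 signal of each list per array. The 12 ES markers ranged from 9.93 to 10.02 on ES arrays and from 5.72 to 5.89 on Pax7-GFP arrays. The 10 muscle markers (Pax7, Myf5, Myod1, Myog, Cdh15, Met, Fgfr4, Chrna1, Actc1 and Heyl) ranged from 5.72 to 5.79 and from 10.46 to 10.70. In Pax7-GFP cells Myog read 11.37 and Actc1 10.94, beside 10.90 for Pax7. This list does not separate progenitors from later muscle cells, which had no list of their own. Beside the counts that follow, 7.34% of all genes tested were called higher and 7.15% lower. Fibroblast markers, of which 6 of 10 were called higher and 1 lower, ranged from 6.45 to 6.70 in ES and from 7.89 to 8.22 in Pax7-GFP arrays. In ES cells the single fibroblast markers ran from 4.42 (Lum) to 9.37 (Col1a1), so some were high there too. Mfap5, the gene lower, went from 7.91 in ES to 6.08 in Pax7-GFP cells. Primitive streak and node markers, the tissue where Nodal is best known to act, had 0 of 9 genes higher and 1 lower, Eomes, by limma, and 2 of the 9 were higher at an unadjusted p under 0.05. Their means ranged from 5.55 to 5.63 and from 5.42 to 5.65. Extraembryonic endoderm markers had 2 of 10 higher and 1 lower (5.82 to 5.86 and 6.02 to 6.16), neural markers 2 higher and 4 lower of 10 (6.99 to 7.02 and 5.67 to 5.77), and endothelial and blood markers 1 higher and 3 lower of 10 (6.15 to 6.20 and 5.49 to 5.66). The part of these cells in the changes of the Nodal genes was not tested.

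Genes whose pattern over the 6 arrays was most like that of a fallen gene were found by Euclidean distance between log2 signals, each gene centred on its own mean. Nearest to Nodal were Gm20385, Ildr1 and Adam32, at distances from 0.13 to 0.22, with log2 differences from -2.95 to -2.82. Lefty1 was nearest to Cln3, Arhgap44 and Arid3b (0.12 to 0.15), whose changes lay between -1.45 and -1.36. Lefty2, with its more variable arrays, had no gene closer than 0.35, and its nearest were Pmel, Laptm5 and Gm17768. For Tdgf1 the nearest were Zfp640, Fbxo15 and Gm21082 (0.18 to 0.23), with changes from -7.15 to -7.03. With 2 groups of 3 arrays, this likeness rests mainly on the size of the group difference.

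The neighbours of Nodal, Tdgf1, Gdf3 and Acvr2a on the chromosome, 2 protein-coding genes on each side in RefSeq order, were looked at after the fit. Of 16 neighbours, 13 had a row of their own, of which 3 were called lower, 2 higher and 8 were not called, beside 7.15% lower and 7.34% higher of all genes. The 3 lower genes lay beside Tdgf1 and Gdf3. Lrrc2, a leucine-rich repeat gene next to Tdgf1, read 9.34 ± 0.099 in ES and 5.30 ± 0.25 in Pax7-GFP cells (SD, n = 3 each), a log2 difference of -4.03 (SE 0.13, limma, adjusted p = 1.35e-07). Fam240a, on the other side of Tdgf1, stood at -0.16 and was not called. Next to Gdf3 lies the pluripotency gene Dppa3, at -1.64 (SE 0.16, limma, adjusted p = 6.00e-05). Beyond it lies Nanog, also on the ES marker list, at -6.89 (SE 0.10, limma, adjusted p = 1.00e-08). Apobec1 on the other side stood at 0.12 (SE 0.30) and was not called, with a wide spread among Pax7-GFP arrays (SD 0.71). No neighbour of Nodal or Acvr2a was called lower, and the lowest of them was Pald1 beside Nodal, at -0.55. Lrrc20 near Nodal (1.07) and Gtdc1 near Acvr2a (1.07) were the 2 higher genes, and neither was called without Pax7-GFP replicate 1, where they stood at 0.74 and 0.90. Array weights also ended both calls, and a signal floor that of Lrrc20.

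**Figure D4:**
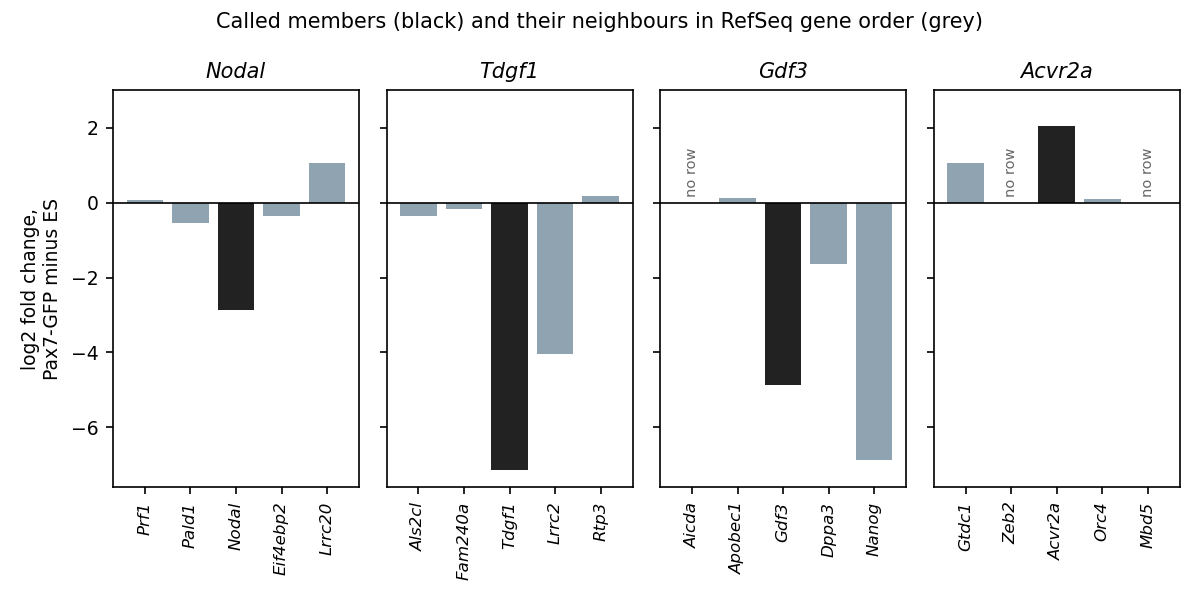
Log2 fold change, Pax7-GFP minus ES (vertical axis), of Nodal, Tdgf1, Gdf3 and Acvr2a (black) and of their nearest protein-coding neighbours in RefSeq gene order (grey), from left to right along the chromosome, where "no row" marks a gene without a row of its own. Lrrc2 beside Tdgf1 and Dppa3 and Nanog on the same side of Gdf3 fall with them. Fam240a and Apobec1 on the opposite sides stood at -0.16 and 0.12 and were not called, and Apobec1 was imprecise (SE 0.30).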

How the data were processed

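Total RNA of 6 mouse samples was labelled with biotin by a double amplification and hybridised to 1 array each, per the labels' protocols. The deposited values are log2 RMA signals, which the authors made with R 2.12.1, per the submitters' processing notes. The RMA options and the genome build are not given in the labels. RMA compresses differences near background.

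Of 41345 rows, GEO's platform annotation of 2022 gave 23521 a single symbol, 1814 several and 16010 none. A gene was represented by its single-symbol row with the highest mean, which gave 22180 genes, and no dim gene was left out. limma 3.58.1 in R 4.3.3 (lmFit, eBayes, two-sided) compared Pax7-GFP with ES arrays, with Benjamini-Hochberg adjustment over all genes. Tested on simulated data of 22180 genes, the fit found 97 of 100 genes given a log2 difference of 1.5, all 100 given 3, and 1 false call among 21980. The simulated noise was independent between arrays, with the same SD per gene in both groups. The real Pax7-GFP arrays varied more than the ES arrays (median SD 0.14 against 0.084), so these figures do not give the error rate of the real calls. With SDs this small, the 2-fold minimum alone keeps out most genes simulated with no difference. The count of false calls therefore says little about the p threshold. The number of arrays limits the precision. The genes and lists were chosen with earlier results of these data known. Named from each pathway list were up to 3 rises and 3 falls of largest size; other genes were named after their values were seen. Alternatives changed scaling, floor, dim-gene filter, row choice, fold minimum, variance prior, array weights, block, arrays and rows tested, the last added after seeing the data.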

Additional observations from a re-analysis of the deposited data

How the results depend on the processing

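Nodal, Lefty2, Tdgf1, Gdf3 and Acvr2a kept their direction and call under all 18 alternatives. Their log2 differences ranged from -2.95 to -2.76, -3.10 to -2.70, -7.20 to -7.10, -5.05 to -4.65 and 1.88 to 2.14. Lefty1 (-1.44 to -1.33) lost its call only at a 4-fold minimum, and none of the 9 genes changed direction. Acvr1b ranged from -1.14 to -0.59, and with a signal floor its limma adjusted p was 0.107. Without single arrays, 5 to 6 of the 9 genes were called lower and 1 higher, 3 to 5 other components were called higher, and 3169 to 3309 genes were called in all. The fold minimum moved counts by construction. With none, 9126 genes passed, 7 of the 9 genes were lower and 2 higher (Acvr2a and Smad2), 6 other components were lower and 12 higher, 2 activin-related genes were lower and 3 higher, and 4 target genes were lower and 2 higher. At a 4-fold minimum 1010 genes passed, with 2 other components lower and 0 higher, 0 activin-related genes lower and 0 higher, and 0 target genes lower and 1 higher. Arrays give no counts, and signals near background limit how large a fall can be measured. Deviations of same-numbered arrays from their group means correlated across genes at r = -0.11, -0.22 and 0.0069. Within a group of 3 arrays the deviations depend on each other, so these values cannot settle whether the numbers pair the samples. With the replicate block 3213 genes were called against 3212, and 5 of the 9 genes were lower and 1 higher.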
